A study of Mus musculus with 96 samples.

Results

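Emx1, Emx2, Tbr1, Etv1, Fezf2, Bcl11b, Prox1 and Zbtb20 encode transcription factors that mark cortical and hippocampal neurons. They are 8 of the 35486 gene symbols of a brain mRNA-seq table, and all 8 were found in it. They were taken by name and by no rule on a measured value, though earlier results of these data were known. The table holds 96 bulk libraries, and its 38 mice were C57BL/6J males. The first experiment took hippocampus, cortex and cerebellum from the same 29 animals. Mice given daily injections of plasma from young mice for 7 days were 18 months old (OPL, 5 mice) or 22 months old (OPL, 3 mice), and mice given PBS for 7 days were 18 months (PBS, 4 mice) or 22 months old (PBS, 3 mice). Mice of 19 months received 24 injections of young plasma (OPLTOPL, 3 mice) or of PBS (OPLTPBS, 4 mice). Naive mice were 18 months (ON, 3 mice) or 2 months old (YN, 4 mice), although the series description gives 3 months for the young mice. A second experiment covered the hippocampus of 5 plasma and 4 PBS mice, all 18 months old. Each library is 1 region of 1 animal, and no transgene or deletion is named. Total counts ran from 851288 to 23768385 per library, with a median of 8889509.

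Emx1 and Emx2 are homeodomain factors of the dorsal telencephalon. Emx1 stays on in excitatory neurons of the cortex, and Emx2 is needed for the dentate gyrus to form. Tbr1 is the T-box factor of layer 6 and other early-born cortical neurons. Fezf2 and Bcl11b (also called Ctip2) are zinc-finger factors of the layer 5 neurons that project below the cortex, and Bcl11b is also strong in hippocampal neurons and in the medium spiny neurons of the striatum. Etv1 (also called Er81) is an ETS factor of layer 5 neurons that is also made by cerebellar granule cells. Prox1 is the homeobox factor of dentate granule cells, and Zbtb20 is a zinc-finger factor required for hippocampal pyramidal neurons that astrocytes also make. In bulk tissue, fewer cells of a type and less RNA per cell cannot be told apart, so every level below is a level of the dissected piece.

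On GRCm38, with GENCODE M21 gene models, the members lie at chr6:85187438-85204462 (Emx1, plus strand), chr19:59458372-59465357 (Emx2, plus), chr2:61802930-61814114 (Tbr1, plus), chr12:38779380-38870484 (Etv1, plus), chr14:12342094-12348189 (Fezf2, minus), chr12:107910403-108003602 (Bcl11b, minus), chr1:190118035-190170714 (Prox1, minus) and chr16:42875881-43642602 (Zbtb20, plus). All 8 are protein-coding genes. The promoters of the 4 members that were at or near 0 in the cerebellum are shown because these genes share that pattern. Each window runs from 250 bases before to 50 bases after a RefSeq gene start on GRCm38.p6. Capitals mark TAATTA, the core read by homeodomain factors, and CANNTG, the E box, each searched on both strands. The windows lie at chr6:85187681-85187980, plus strand (Emx1), chr19:59458440-59458739, plus strand (Emx2), chr2:61804203-61804502, plus strand (Tbr1) and chr14:12345816-12346115, minus strand (Fezf2).
Emx1: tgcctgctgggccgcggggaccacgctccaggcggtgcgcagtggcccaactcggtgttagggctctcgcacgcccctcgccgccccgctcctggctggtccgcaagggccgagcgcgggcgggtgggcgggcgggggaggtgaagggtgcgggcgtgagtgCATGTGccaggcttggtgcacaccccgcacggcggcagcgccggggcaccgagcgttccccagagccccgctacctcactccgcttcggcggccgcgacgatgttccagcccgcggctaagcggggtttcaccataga
Emx2: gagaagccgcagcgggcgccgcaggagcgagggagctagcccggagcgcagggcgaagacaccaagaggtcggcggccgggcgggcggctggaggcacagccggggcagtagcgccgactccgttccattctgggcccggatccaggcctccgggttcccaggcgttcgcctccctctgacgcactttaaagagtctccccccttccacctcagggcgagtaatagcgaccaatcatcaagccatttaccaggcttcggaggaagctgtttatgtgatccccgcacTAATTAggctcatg
Tbr1: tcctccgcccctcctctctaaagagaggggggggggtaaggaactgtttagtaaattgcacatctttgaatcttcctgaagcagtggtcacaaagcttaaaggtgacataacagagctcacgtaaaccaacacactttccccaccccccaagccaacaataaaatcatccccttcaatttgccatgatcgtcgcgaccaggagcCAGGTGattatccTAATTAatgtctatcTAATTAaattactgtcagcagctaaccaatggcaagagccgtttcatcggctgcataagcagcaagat
Fezf2: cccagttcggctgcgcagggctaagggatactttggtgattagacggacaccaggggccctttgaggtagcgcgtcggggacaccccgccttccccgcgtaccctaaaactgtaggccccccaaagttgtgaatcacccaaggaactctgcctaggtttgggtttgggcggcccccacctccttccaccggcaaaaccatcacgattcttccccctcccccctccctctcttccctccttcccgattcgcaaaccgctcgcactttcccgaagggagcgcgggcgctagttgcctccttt

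The Tbr1 window held 2 TAATTA motifs and 1 E box, which did not overlap each other. The Emx2 window held 1 TAATTA motif after the gene start, the Emx1 window held 1 E box, and the Fezf2 window held neither. Of 32817 promoter windows of the same length, 5.3% held TAATTA and 72.3% held CANNTG. The T-box word AGGTGTGA was in 1.27% of all windows and in none of the 10 windows of the 8 members. The Emx1 window was rich in CpG, with 37 CpG pairs and 74.0% G and C, against 7 CpG pairs and 46.0% in the Tbr1 window and a median of 7 CpG pairs and 52.7% over all windows. A match describes these letters and is not a binding site.

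In the 29 mice, the ranges of all 8 members overlapped between hippocampus and cortex libraries. Of all genes tested, 0.262% did not overlap there. For Emx1, Tbr1 and Zbtb20 the overlap came from the hippocampus library of naive 2-month mouse 14 alone. In the cerebellum, 4 members were at or near 0. Emx1 had 4.74 to 20.9 CPM (counts scaled to a library total of 1000000) in the 29 hippocampus libraries, with a median of 8.71, and 13.3 to 29.2 CPM in the cortex, with a median of 23.2. In the cerebellum Emx1 had 0 counts in 23 of 29 libraries and 20 counts in all, a pooled 0.0951 CPM with an exact Poisson 95% interval of 0.0581 to 0.147 CPM. Emx2 had 5.24 to 10.6 CPM in the hippocampus (median 7.81) and 3.25 to 9.83 CPM in the cortex (median 5.94). In the cerebellum Emx2 was at 0 in 23 of 29 libraries and at 0.0904 CPM pooled. Both genes were thus at or near 0 in the cerebellum, while the cortex was the higher forebrain region for Emx1 and the hippocampus for Emx2. The intervals cover counting error only.

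Tbr1 had 24.0 to 77.2 CPM in the hippocampus (median 31.6) and 67.8 to 127 CPM in the cortex (median 103). It stayed at or under 1.44 CPM in every cerebellum library. Fezf2 had 16.2 to 57.0 CPM in the hippocampus (median 41.0) and 17.8 to 52.3 CPM in the cortex (median 24.5), and in the cerebellum it was at 0 in 26 of 29 libraries with 6 counts in all. Bcl11b had 67.4 to 224 CPM in the hippocampus (median 138) and 47.1 to 171 CPM in the cortex (median 88.6). In the cerebellum Bcl11b had a median of 2.57 CPM and was above 0 in every library. For these 3 genes no forebrain library overlapped with a cerebellum library. Of all genes tested, 21.2% did not overlap between hippocampus and cerebellum and 24.1% between cortex and cerebellum.

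Etv1 ran the other way. It had 73.2 to 152 CPM in the hippocampus (median 124), 53.7 to 123 CPM in the cortex (median 61.0) and 403 to 538 CPM in the cerebellum (median 464). Prox1 had 17.2 to 108 CPM in the hippocampus (median 78.8), 11.6 to 24.9 CPM in the cortex (median 16.4) and 52.4 to 92.3 CPM in the cerebellum (median 68.2). Zbtb20 had 175 to 784 CPM in the hippocampus (median 562), 119 to 199 CPM in the cortex (median 146) and 350 to 581 CPM in the cerebellum (median 462). Etv1, Prox1 and Zbtb20 are therefore the members whose RNA was plentiful in the cerebellum, and the cortex was lowest for all 3. Divided by the length of the exons in GENCODE M21, the cortex medians were 18.7 CPM per kilobase for Tbr1, 10.9 for Bcl11b, 10.6 for Emx1 and 8.04 for Fezf2, and the other 4 members lay between 1.95 for Prox1 and 4.76 for Zbtb20. On the same scale the hippocampus was led by Zbtb20 with 18.3 CPM per kilobase and Bcl11b with 17.0, and the cerebellum by Etv1 with 34.9. The annotation behind the counts is not given in the sources used here, so the lengths are approximate.

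**Figure D1:**
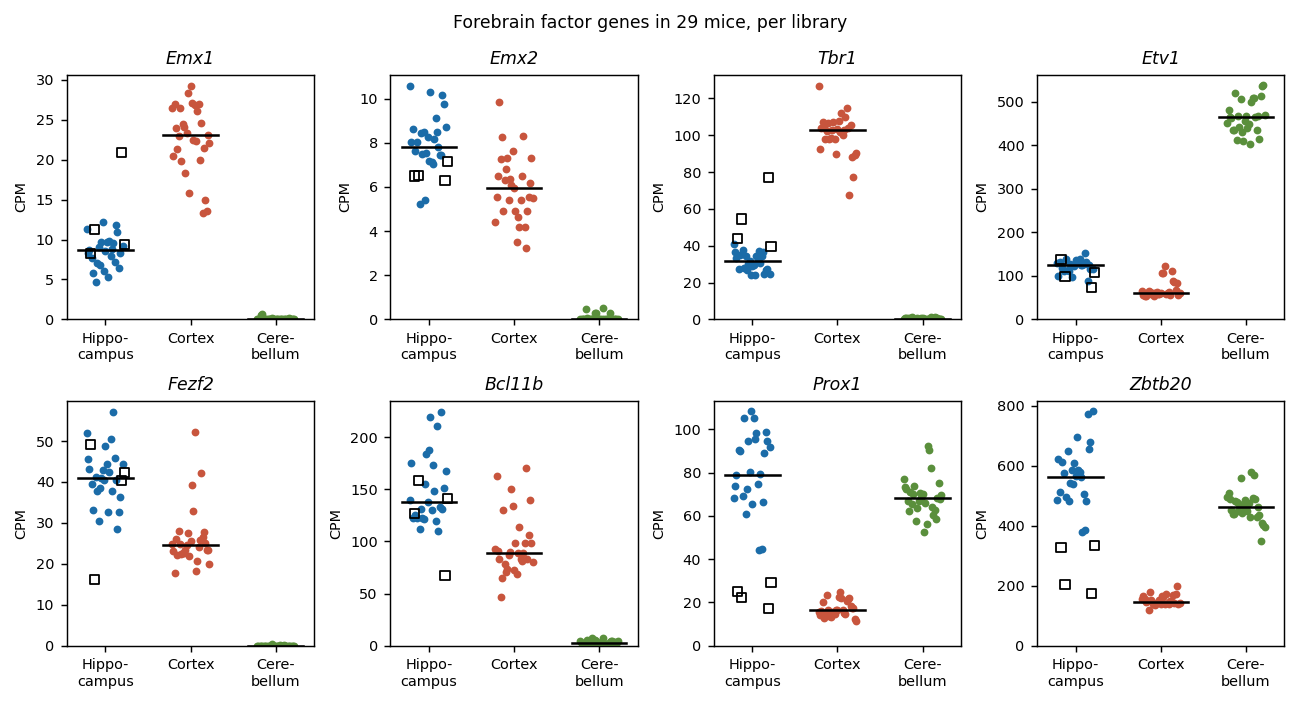
CPM of the 8 members (vertical axes, linear) in each of 29 hippocampus, cortex and cerebellum libraries (horizontal axes), with the median as a line. Open squares mark 4 hippocampus libraries with low hippocampal markers. Emx1, Emx2, Tbr1 and Fezf2 lie at or near 0 in the cerebellum, where Etv1 lies between 403 and 538 CPM.

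Differences between regions were tested in edgeR's quasi-likelihood test over the 8 groups of mice, with Benjamini-Hochberg adjustment over 19490 genes and a threshold of 0.05. All 8 members passed in each of the 3 region comparisons. Most genes did so: 60.3% of all genes passed for hippocampus against cortex, 84.1% for hippocampus against cerebellum and 83.3% for cortex against cerebellum, so 8 of 8 is not a result about these genes. In the hippocampus, relative to the cortex, Prox1 was higher by 2.09 ± 0.12 (log2 fold change ± standard error, adjusted p = 6.11e-26) and Zbtb20 by 1.79 ± 0.08 (adjusted p = 7.66e-31). Prox1 was higher in 27 of 29 mice and Zbtb20 in 28 of 29. Tbr1 was lower by a log2 change of -1.58 ± 0.07, in 29 of 29 mice, and Emx1 by -1.35 ± 0.09, in 28 of 29. Smaller differences favoured the hippocampus for Etv1 (0.78 ± 0.04, 27 of 29 mice), Fezf2 (0.60 ± 0.07, 25 of 29), Bcl11b (0.59 ± 0.10, 28 of 29) and Emx2 (0.46 ± 0.09, 24 of 29). Mouse 14 was the exception for Emx1, Bcl11b and Zbtb20, and 1 of the exceptions for Etv1 and Prox1.

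Relative to the cerebellum, Etv1 was lower in the hippocampus (log2 change -1.79 ± 0.04) and in the cortex (-2.57 ± 0.04), in 29 of 29 mice each. Prox1 and Zbtb20 were lower in the cortex than in the cerebellum in 29 of 29 mice, by log2 changes of -1.84 ± 0.12 and -1.44 ± 0.08. Bcl11b was higher by 5.84 ± 0.15 in the hippocampus and by 5.25 ± 0.15 in the cortex. Fitted changes of Emx1, Emx2 and Fezf2 against the cerebellum rest on 20, 19 and 6 cerebellar counts and are left as the levels above. The 2 close calls were both hippocampus against cerebellum. Zbtb20 was higher in the hippocampus in 19 of 29 mice (0.36 ± 0.08, adjusted p = 3.32e-05). In the naive 2-month mice alone its change was 0.48 ± 0.33 and did not pass (adjusted p = 0.221). Prox1 was higher in 18 of 29 mice (0.25 ± 0.11, adjusted p = 0.0258), and with the mouse as a block its change was 0.20 ± 0.11 with an adjusted p = 0.0904. Without the 4 hippocampus libraries of low hippocampal markers, the Prox1 change was 0.42 ± 0.06 (adjusted p = 8.31e-10).

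Of 25 other forebrain transcription regulators (among them Cux2 and Neurod6), a list chosen with earlier results known, 11 were higher and 12 lower in the hippocampus than in the cortex, with a median log2 change of 0.02 against 0.00 over all genes tested. Against the cerebellum, 18 were higher and 6 lower in the hippocampus (median 1.36), and 20 were higher and 4 lower in the cortex (median 1.89). The medians over all genes tested were -0.02 in both.

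Several members differed between libraries of 1 region together with markers of the tissue dissected. In the hippocampus, 4 of 29 libraries had a score of dentate granule and pyramidal cell markers more than 3 median absolute deviations below the region's median. They were naive 2-month mice 14 and 20, long PBS mouse 24 and long plasma mouse 23. Their Prox1 level was 17.2, 29.2, 22.2 and 25.0 CPM in that order, against 44.4 to 108 CPM in the other 25 hippocampus libraries. Zbtb20 lay at 175 to 334 CPM in the 4, against 378 to 784 CPM in the other 25. Neither gene overlapped between the 4 and the 25. The 4 were picked by hippocampal neuron markers, and the share of all genes that separates them from the 25 was not counted. Tbr1 was 77.2 CPM in mouse 14, 54.6 in mouse 24, 44.0 in mouse 23 and 39.6 in mouse 20, against 24.0 to 41.1 CPM in the other 25, so 3 of the 4 lay above all of them.

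The hippocampus library of mouse 14 had cortex-like levels of several members. Its Emx1 level of 20.9 CPM and Tbr1 level of 77.2 CPM lay within the range of the cortex libraries. Its Prox1 and Zbtb20 levels, 17.2 and 175 CPM, also lay within that range. The summed CPM of 11 cortical neuron markers was 461 in this library, and the cortex libraries ranged from 413 to 659. Its 8 pyramidal cell markers summed to 307 CPM, and those of the cortex libraries to 193 to 440 CPM. In long PBS mouse 24, the summed striatal markers reached 807 CPM, against a median of 186 CPM over the hippocampus libraries.

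Across the 29 hippocampus libraries of the first experiment, Tbr1 followed the cortical marker score, the mean log2 CPM of 11 genes that hold no member (Pearson r = 0.94, Spearman rho = 0.91). Prox1 (r = -0.82, rho = -0.78) and Zbtb20 (r = -0.90, rho = -0.85) ran against it. Each of these had a permutation p of 1e-05, the smallest that 100000 permutations can give, and an adjusted p of 5.3e-05 over 32 relations. With the hippocampal marker score of 14 genes, Zbtb20 (r = 0.97, rho = 0.91) and Prox1 (r = 0.94, rho = 0.89) ran with the score and Tbr1 against it (r = -0.90, rho = -0.82), each with the same permutation p. Without the 2 libraries farthest from the median score, r with the cortical score was 0.89 for Tbr1, -0.65 for Prox1 and -0.81 for Zbtb20. Without the 4 libraries named above it was 0.87, -0.63 and -0.81 over 25 libraries, and with values centred on their group means over all 29 it was 0.95, -0.82 and -0.92, in the same order. Emx1 in the hippocampus had r = 0.51 with the cortical score, which was 0.18 without the 2 farthest libraries, so that relation rests on them.

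**Figure D2:**
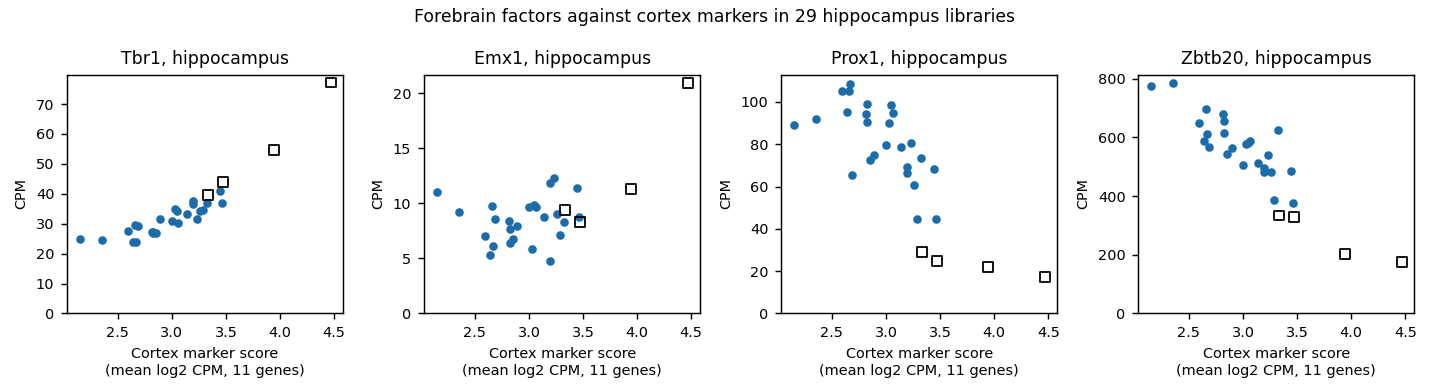
CPM of 4 members (vertical axes) in 29 hippocampus libraries against the cortical marker score, the mean log2 CPM of 11 genes (horizontal axes). Open squares are the 4 libraries with low hippocampal markers. Tbr1 climbs with the score to 77.2 CPM, and Prox1 and Zbtb20 descend to 17.2 and 175 CPM.

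In the cortex, Emx1 (r = 0.63, adjusted permutation p = 0.00124) and Tbr1 (r = 0.64, adjusted permutation p = 0.00105) followed the cortical marker score over 29 libraries. The rho was 0.43 for Emx1 and 0.50 for Tbr1, and r without the 2 farthest libraries was 0.43 and 0.48. By Spearman, Tbr1 passed (adjusted permutation p = 0.0270) and Emx1 did not (adjusted permutation p = 0.0711). None of the 8 members passed with the hippocampal score in the cortex. Counted over all 32 relations, 13 passed by Pearson at an adjusted p under 0.05, 11 of them in the hippocampus. By Spearman fewer passed. In the hippocampus, Emx1 did not pass with the cortical or the hippocampal score (adjusted permutation p = 0.119 and 0.428). Neither did Emx2 with the hippocampal score (0.150) or Bcl11b with the cortical score (0.150). Only the members were correlated with these scores, so the share of all genes that follow them is not known.

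A striatal score of 12 genes, added after these data were seen and adjusted over 16 relations, ranged widely in the cortex, with summed markers of 246 to 1883 CPM. Bcl11b followed it in the cortex (r = 0.78, rho = 0.81, adjusted permutation p = 0.00016, r = 0.83 without the 2 farthest libraries and 0.70 centred on groups). The 5 cortex libraries with the most Bcl11b had 171, 163, 150, 140 and 134 CPM, and the lowest had 47.1 CPM. Zbtb20 also ran with the striatal score in the cortex (r = 0.55, adjusted permutation p = 0.00678), and Tbr1 (r = -0.45, adjusted permutation p = 0.0346) and Emx1 (r = -0.43, adjusted permutation p = 0.0440) ran against it. By Spearman, the adjusted permutation p of Emx1 was 0.112. In the hippocampus the signs were the other way round for Zbtb20 (r = -0.77, adjusted permutation p = 0.000267) and Tbr1 (r = 0.65, adjusted permutation p = 0.00332), and Prox1 ran against the score (r = -0.76, adjusted permutation p = 0.000267). Without the 4 libraries of low hippocampal markers these r were -0.77, 0.61 and -0.73, in the same order. The part of striatal tissue in the spread of Bcl11b between mice was not tested.

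**Figure D3:**
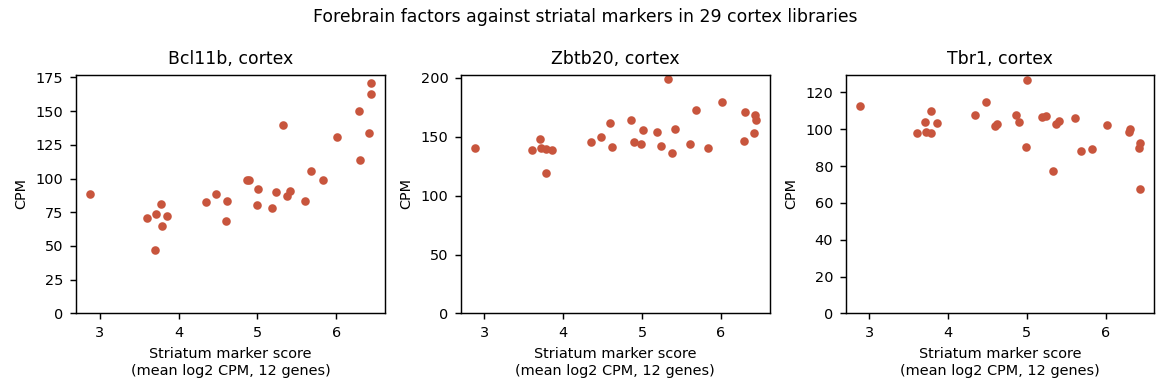
CPM of Bcl11b, Zbtb20 and Tbr1 (vertical axes) in 29 cortex libraries against the striatal marker score, the mean log2 CPM of 12 genes (horizontal axes). Bcl11b climbs to 171 CPM at the highest scores.

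The genes whose log2 CPM was most like a member's, over the 29 libraries of the region where the member was highest, were Lct (r = 0.97, itself in the dentate marker list), Ppfia2 (0.96) and Prox1os (0.95) for Prox1, and Iqgap2, Olfml2b (0.97 each) and Wipf3 (0.96) for Zbtb20, all in the hippocampus. Prox1os lies antisense to Prox1 and shares 133 exonic bases with it in GENCODE M21, and the libraries do not mark strand, so reads there cannot be told apart. For Bcl11b they were Sowaha (0.91), Ncdn and Ddn (0.79 each), for Fezf2 Mpped1 (0.87), Tenm2 and Grp (0.74 each) and for Emx2 Nt5m (0.73), Jazf1 (0.65) and Kctd12 (0.64), again in the hippocampus. In the cortex, Emx1 was most like Kcns1 (0.87), Pgr and Fam43a (0.85 each), and Tbr1 most like Pex5l, Bend6 (0.87 each) and Cdr1 (0.86). In the cerebellum, Etv1 was most like Scn2a (0.86), Adcy1 and Gabrd (0.83 each). Between 11460 and 11509 genes were compared for each member, and libraries share depth and dissection, so these are descriptions. Emx2 shares 264 exonic bases with the antisense gene Emx2os, and Zbtb20 shares 104 with Gm9968 and 83 with Mir568, so their counts carry the same uncertainty.

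With age, the member that changed between naive mice was Zbtb20 in the cerebellum. It was at 496, 509 and 488 CPM in the 18-month mice and at 350, 409, 403 and 395 CPM in the 2-month mice. All 18-month mice lay above all 2-month mice, where 13.6% of all genes did not overlap, and the log2 change was 0.33 ± 0.07 (edgeR, adjusted p = 0.00699). It was the 1 of 4 testable members that passed there, and 2.39% of all genes did, 1.33% higher and 1.06% lower at 18 months. Without 18-month mouse 6 the change was 0.31 and its adjusted p 0.0555. The 8 astrocyte markers summed to 4968 to 5053 CPM at 18 months and 5147 to 5395 CPM at 2 months, and the 6 cerebellar granule markers to 1981 to 2202 and 2045 to 2506 CPM. Their part in the result was not tested. The sample titles carry a number whose meaning is not given, and naive mice of 18 and 2 months share none, so it cannot be told apart from age. Etv1 in the cerebellum averaged 466 ± 15.5 CPM at 18 months and 514 ± 31.5 CPM at 2 months (SD, n = 3 and 4), a log2 change of -0.17 ± 0.07 that did not pass (adjusted p = 0.244). Of the other 25 regulators, 23 could be tested in the cerebellum and 2 rose, Mef2c by 0.30 ± 0.08 (adjusted p = 0.0399) and Pou3f1 by 2.04 ± 0.57 (adjusted p = 0.0485).

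In the cortex and the hippocampus no member passed between naive 18-month and 2-month mice, and 0.112% of all genes in the cortex (0.0852% higher, 0.0266% lower) and 0.0719% in the hippocampus (0.0664% higher, 0.00553% lower) did. In the cortex 2 of 8 members had an unadjusted p under 0.05, as did 6.18% of all genes. Tbr1 averaged 108 ± 17.4 CPM at 18 months and 86.2 ± 5.97 CPM at 2 months (log2 change 0.29 ± 0.12, adjusted p = 0.693), and Etv1 averaged 57.8 ± 5.78 and 66.8 ± 12.3 CPM (-0.25 ± 0.11, adjusted p = 0.751). In the hippocampus none of the 8 had an unadjusted p under 0.05. There, 2 of the 4 young libraries were those of mice 14 and 20, and the 2-month SD was 40.7 CPM of a mean of 58.2 CPM for Prox1 and 286 of 492 CPM for Zbtb20. No member's age change differed between regions past the threshold in edgeR. Of all genes, 0.041% passed for cortex minus cerebellum, 0.0513% for hippocampus minus cerebellum and 0% for hippocampus minus cortex. For hippocampus minus cortex, which rests on the same young libraries, 3 of 8 members had an unadjusted p under 0.05. The share of all genes at that p was not counted, so the 3 are not a result about the members.

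At 22 months, Etv1 stood apart in the cortex. It was at 85.6, 89.0 and 112 CPM in the PBS mice of 22 months and at 56.7, 58.2, 61.0 and 62.1 CPM in the PBS mice of 18 months. The groups did not overlap, which held for 9.49% of all genes, and the log2 change was 0.65 ± 0.10 (adjusted p = 0.0124), a 1.56-fold higher level. Etv1 was the 1 gene of 18769 that passed in this comparison, 0.00533% of those tested. The adjusted p was between 0.0565 and 0.0909 without 18-month mouse 2, 8 or 11 or 22-month mouse 21, each left out alone, and the log2 change stayed between 0.52 and 0.67 in these. The adjusted p was 0.0715 without libraries under 2500000 counts and 0.113 in a fit of the compared groups alone. Fezf2 was at 26.5, 27.9 and 42.1 CPM in the 22-month mice and at 18.3, 20.7, 24.2 and 25.9 CPM in the 18-month mice, without overlap and without passing (0.53 ± 0.15, adjusted p = 0.202).

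Etv1 in the cortex was at 105, 107 and 123 CPM in the plasma mice of 22 months and at 57.6 to 61.8 CPM in the 5 plasma mice of 18 months. All 6 mice of 22 months, at 85.6 to 123 CPM, lay above all 23 other mice, whose highest value was 84.0 CPM in naive 2-month mouse 14. The share of all genes that separates the 6 from the 23 was not counted. With PBS and plasma mice together, an alternative added after seeing the data, the 6 mice of 22 months were compared with the 9 of 18 months, and 1.9% of all genes passed. Etv1 rose by 0.76 ± 0.07 (adjusted p = 1.84e-07) and Fezf2 by 0.63 ± 0.10 (adjusted p = 0.000927), and both passed whichever of the 15 libraries was left out. Fezf2 averaged 36.8 CPM in the 6 mice and 23.6 CPM in the 9. Prox1 rose by 0.43 ± 0.11 (adjusted p = 0.0400) and Emx2 fell by 0.51 on the log2 scale (standard error 0.14, adjusted p = 0.0482). Emx2 kept that call in 3 and Prox1 in 4 of the 15 fits with 1 library left out, where their adjusted p reached 0.156 and 0.120. Without libraries under 2500000 counts the adjusted p of Emx2 was 0.0854. Tbr1 (-0.09 ± 0.08), Emx1 (-0.09 ± 0.14), Bcl11b (-0.01 ± 0.18) and Zbtb20 (0.03 ± 0.07) did not pass.

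Of the 25 other forebrain regulators in the cortex, 2 rose and 3 fell between the 22-month and 18-month mice in the same fit. Tshz2, a zinc-finger gene of deep-layer neurons, averaged 57.7 ± 21.2 CPM in the 6 mice of 22 months and 13.7 ± 2.63 CPM in the 9 mice of 18 months (log2 change 1.99 ± 0.21, adjusted p = 1.70e-06). Zfpm2 rose by 0.87 ± 0.12 (adjusted p = 0.000182). Rorb, a nuclear receptor of layer 4 neurons, averaged 223 ± 38.2 CPM in the mice of 22 months and 308 ± 53.6 CPM in those of 18 months (-0.50 ± 0.11, adjusted p = 0.0208). Cux1, a homeobox factor of upper layers, and Sox5, a factor of deep layers, changed by -0.40 ± 0.10 and -0.34 ± 0.07. The median over the 25 was -0.10, against 0.00 over all genes tested.

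Marker sums of the same cortex libraries differed in part. The 11 cortical neuron markers summed to 413 to 590 CPM at 22 months (median 566) and 454 to 612 CPM at 18 months (median 571). The 12 striatal markers summed to 246 to 1775 CPM (median 652) at 22 months and 382 to 1832 CPM (median 809) at 18 months. PBS mouse 15 of 22 months held the lowest cortical sum, 1775 CPM of striatal markers and 440 CPM of pyramidal cell markers. Higher at 22 months were the 4 thalamic markers, with 53.7 to 64.0 CPM (median 55.9) at 22 months and 41.8 to 57.5 CPM (median 45.4) at 18 months. So were the 6 oligodendrocyte markers, with 5134 to 7308 CPM (median 6787) at 22 months and 3296 to 5920 CPM (median 4810) at 18 months. Their part in the result was not tested. The number in the sample titles also differs: no mouse of 22 months shares it with a mouse of 18 months, so it cannot be told apart from age. Among the 22-month mice, the 3 plasma mice share it with PBS mouse 21. These 4 had 105 to 123 CPM of Etv1 and 32.8 to 52.3 CPM of Fezf2, and PBS mice 15 and 18, which share another number, had 89.0 and 85.6 CPM of Etv1 and 26.5 and 27.9 CPM of Fezf2.

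The 22-month change of Etv1 was larger in the cortex than in either other region, and that of Fezf2 larger than in the hippocampus. For Etv1, the change in the cortex exceeded that in the hippocampus by 0.77 ± 0.11 (adjusted p = 2.03e-05) and that in the cerebellum by 0.89 ± 0.11 (adjusted p = 2.98e-07), in an edgeR fit over the libraries of all 3 regions that was added after seeing the data. For Fezf2, the change in the cortex exceeded that in the hippocampus by 0.90 ± 0.18 (adjusted p = 0.00498). Its difference from the cerebellum, where it was at 0 in 26 of 29 libraries, did not pass (log2 difference 1.76, adjusted p = 0.694). In these comparisons 0.729% of all genes passed for cortex minus hippocampus and 0.395% for cortex minus cerebellum. In the hippocampus itself, with PBS and plasma mice together, no gene passed in edgeR, and none of the 8 members had an unadjusted p under 0.05. Etv1 averaged 125 CPM at 22 months and 126 CPM at 18 months there, and Fezf2 averaged 36.9 and 44.7 CPM (log2 change -0.26 ± 0.14, unadjusted p = 0.0712). In the PBS mice alone no gene passed in edgeR either. There Fezf2 was the 1 member of 8 with an unadjusted p under 0.05 (-0.45 ± 0.21, unadjusted p = 0.0384), as were 7.85% of all genes.

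In the cerebellum, Prox1 was at 58.6, 60.6 and 62.8 CPM in the PBS mice of 22 months and at 64.3, 82.3, 90.3 and 92.3 CPM in those of 18 months. The groups did not overlap, which held for 15.1% of all genes, and the log2 change was -0.41 ± 0.09 (adjusted p = 0.0474), where 0.157% of all genes passed, 0.064% higher and 0.0931% lower at 22 months. The call did not hold in 6 of the 7 fits that left out 1 library, with adjusted p up to 0.266. It held when the lowest 18-month mouse, 11, was left out. The adjusted p was 0.161 without libraries under 2500000 counts and 0.0565 with relative log expression factors. In the same PBS mice the 6 cerebellar granule markers summed to 1913 to 2044 CPM at 22 months and 2162 to 2323 CPM at 18 months. The 4 thalamic markers summed to 133 to 142 and 82.5 to 105 CPM, and the 11 cortical neuron markers to 51.5 to 65.9 and 25.3 to 36.4 CPM, in the same order, so none of these 3 sums overlapped. Their part in the result was not tested. Zbtb20 averaged 442 ± 17.0 CPM in the PBS mice of 22 months and 534 ± 47.8 CPM in those of 18 months (-0.28 ± 0.07, adjusted p = 0.0785). Bcl11b, at a few CPM, was at 3.74 to 4.31 CPM in the PBS mice of 22 months and at 0.678 to 1.94 CPM in those of 18 months (1.68 ± 0.63, adjusted p = 0.181). With PBS and plasma mice together, Prox1 fell by 0.30 on the log2 scale (standard error 0.06, adjusted p = 0.0212) and Zbtb20 by 0.19 (standard error 0.05, adjusted p = 0.0489), where 1.23% of all genes passed. Prox1 kept that call in 10 and Zbtb20 in 5 of the 15 fits with 1 library left out. Their highest adjusted p in these, 0.163 for Prox1 and 0.224 for Zbtb20, came without plasma mouse 22 of 22 months. Without libraries under 2500000 counts the adjusted p was 0.0549 and 0.128, in the same order. Of the 23 other regulators that could be tested in the cerebellum, 1 passed: Nr4a2 fell by 1.11 (standard error 0.22, adjusted p = 0.0169).

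**Figure D4:**
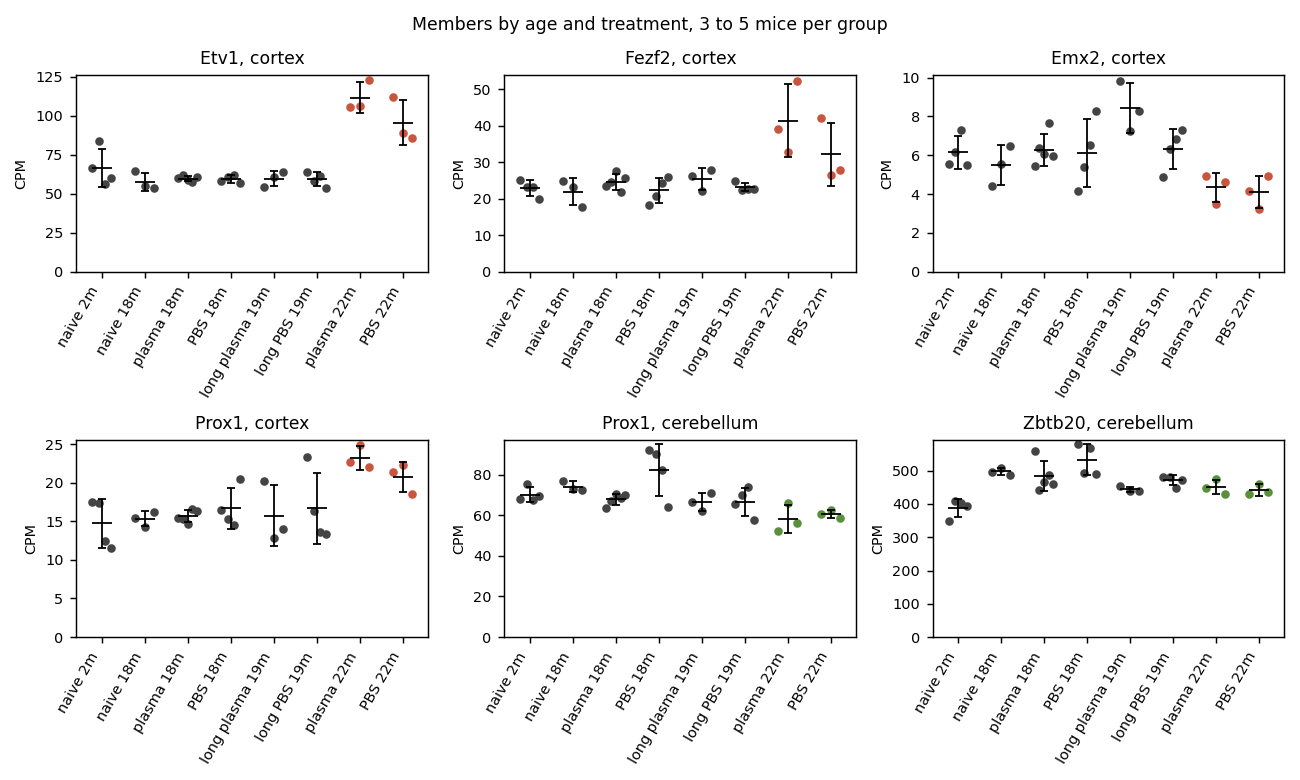
CPM of members by group (horizontal axes, age from 2 to 22 months, plasma left of PBS), 1 point per mouse with the group mean and SD; colour marks the 22-month groups. In the cortex, the 6 mice of 22 months have 85.6 to 123 CPM of Etv1, above every other cortex library.

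The data show no member past the threshold with young plasma. Plasma was compared with PBS in 10 separate comparisons, covering 3 regions with 7 injections at 18 and at 22 months and with 24 injections at 19 months, and the second hippocampus experiment. In the first experiment the title number is shared by 2 plasma mice with 1 PBS mouse at 18 months, by 3 with 1 at 22 months and by none at 19 months, so at 19 months it cannot be told apart from treatment. None of the 68 tests of members passed in edgeR, and no gene passed at all, 0% in each comparison. An unadjusted p under 0.05 was found in 6 of the 68 tests and in 1.68% to 7.96% of all genes per comparison, and neither DESeq2 nor limma-voom made a member pass in any of the 10. The smallest of these p was that of Prox1 in the cerebellum at 18 months. It was at 63.7 to 70.7 CPM in 5 plasma mice and at 64.3 to 92.3 CPM in 4 PBS mice, which overlap (-0.23 ± 0.08, unadjusted p = 0.00693, adjusted p = 1.00). Fezf2 in the cortex at 22 months was at 32.8, 39.2 and 52.3 CPM in plasma mice and at 26.5, 27.9 and 42.1 CPM in PBS mice (0.38 ± 0.15, adjusted p = 0.846). Etv1 in the cortex at 22 months had a log2 change of 0.23 ± 0.10 (adjusted p = 0.862).

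How large a plasma effect these data leave room for differs by member. For Etv1, the changes over the 10 comparisons lay between -0.12 and 0.23, and the widest limits of their 95% intervals were -0.36 and 0.52. For Tbr1, over 7 comparisons in cortex and hippocampus, the changes lay between -0.34 and 0.21 with limits of -0.74 and 0.52. For Emx2 they lay between -0.13 and 0.40 with limits of -0.45 and 0.77, and for Fezf2 between -0.17 and 0.39 with limits of -0.52 and 0.78. Prox1 and Zbtb20 had wider limits, -0.87 to 1.30 and -0.78 to 0.92, both set in the hippocampus, where their levels spread most between mice. For Bcl11b the limits were -1.02 and 2.33, the upper one from the cerebellum, where the gene has few counts. For Emx1 they were -0.89 and 0.79. The direction was mixed for each member, with 5 of 10 changes positive for Etv1, Prox1 and Zbtb20 and 7 of 10 for Bcl11b.

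**Figure D5:**
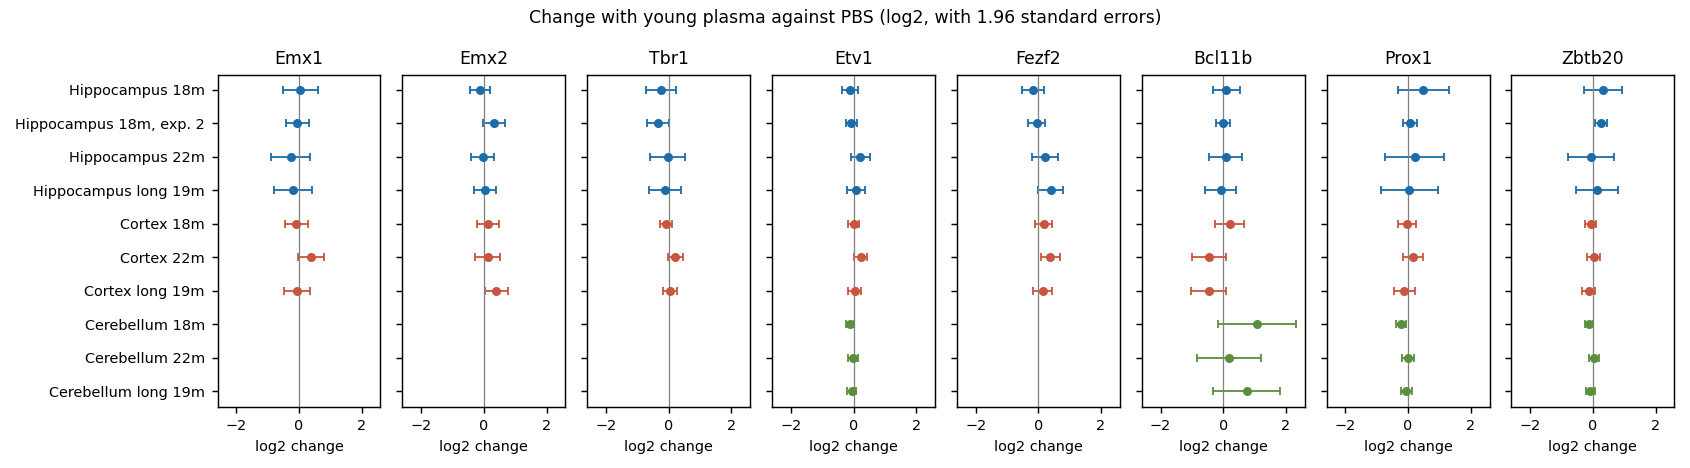
Log2 change of each member with young plasma against PBS (horizontal axes) in 10 comparisons (rows), with the 95% interval from its standard error as bars; blue is hippocampus, red cortex, green cerebellum. For Etv1 the changes lie between -0.12 and 0.23, and no member passed the threshold.

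The hippocampus at 18 months was compared in both experiments. In the second, Zbtb20 was at 627 to 702 CPM in 5 plasma mice (median 649) and at 453, 540, 575 and 674 CPM in 4 PBS mice. In the first, it was at 539 to 610 CPM in 5 plasma mice (median 567) and at 378, 385, 505 and 562 CPM in 4 PBS mice. The groups overlapped in each. Fitted together, 10 plasma mice against 8 PBS mice with the experiment as a covariate, Zbtb20 had a log2 change of 0.29 ± 0.08 (unadjusted p = 0.000963, adjusted p = 0.215) and Tbr1 one of -0.31 ± 0.11 (unadjusted p = 0.0119, adjusted p = 0.369). No gene passed there in edgeR, 9.56% had an unadjusted p under 0.05, and in DESeq2 Zbtb20 passed with an adjusted p = 0.0464. In the first experiment the hippocampal marker score was 5.34 to 5.68 in plasma mice and 4.85 to 5.57 in PBS mice. In the second it was 5.43 to 5.55 and 5.14 to 5.67, in the same order. The 8 pyramidal cell markers summed to 713 to 1049 CPM in plasma mice and 659 to 870 CPM in PBS mice of the first. In the second they summed to 678 to 837 and 661 to 861 CPM. In the first experiment the 6 dentate granule markers summed to 140 to 197 CPM in plasma mice (median 186) and 84.4 to 189 CPM in PBS mice (median 140), and the 11 cortical markers to 131 to 177 and 143 to 232 CPM. In the second, the dentate markers summed to 173 to 210 CPM in plasma mice (median 192) and 129 to 218 CPM in PBS mice (median 211), so their median was lower with plasma, and the cortical markers to 142 to 179 and 140 to 211 CPM, in the same order. Their part in the result was not tested.

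PBS injection itself was compared with naive mice at 18 months, and no member passed in any region, with 0% of all genes passing and no member at an unadjusted p under 0.05 in edgeR. The largest differences there were those of Bcl11b, -0.89 ± 0.71 in the cerebellum and -0.37 ± 0.27 in the cortex, and Prox1 in the hippocampus, -0.30 ± 0.48.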

How the data were processed

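The labels' protocols name RNeasy kits for the RNA, Smart-Seq2 for the cDNA and Nextera XT for the libraries, a chemistry that does not mark strand. The submitters' processing notes name Trim Galore 0.3.7, STAR 2.5.3a, GRCm38 and DESeq2, the last without a role or version. The authors deposited whole-number read counts per gene symbol, not normalized; the counting tool and its annotation are not given in the sources used here. Depth is given in the report.

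CPM divides a count by the library's total. Tests used edgeR 4.0.16 in R 4.3.3 (TMM factors, filterByExpr with a minimum count of 10 and total of 15, quasi-likelihood test), with 1 coefficient per group over the 29 libraries of a region, all 87 libraries of the first experiment for differences between regions, or the 9 of the second. P-values were adjusted over all genes by Benjamini-Hochberg, and called under 0.05. They set a difference against the spread between the mice of a group. In the main fits over all 87 libraries, the 3 regions of a mouse counted as separate libraries, with no term for the mouse. Simulated data were run only for the age comparison of naive mice in the cortex and for plasma against PBS in the second hippocampus experiment. The other comparisons were not simulated. Marker scores are mean log2 CPM with a prior count of 2, and correlations used 100000 two-sided permutations in Python 3.11.15 with SciPy 1.17.1. DESeq2 1.42.0 and limma 3.58.1 (voom with quality weights) were alternatives, beside other size factors, no filter, libraries left out, fewer groups and the mouse as a block. The 3 regions of a mouse are paired by the animal number in the labels; the median correlation of the deviations of 2 regions of a mouse was 0.0473 to 0.0715. Named are in every comparison the 8 members, up to 4 forebrain regulators per direction past the threshold, by size of change, and, per member, the 3 genes most like it with a mean of at least 5 CPM. The members and lists were chosen with earlier results of these data known.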

Additional observations from a re-analysis of the deposited data

Results flagged for a closer look

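In groups of 4 or 5 mice, 96 sets of values were examined for a library far from the others, and 5 stood out, where chance gives about 1 in 20. Emx1 was at 20.9 CPM in the hippocampus of naive 2-month mouse 14, against 8.38 to 9.36 CPM in the other 3. Tbr1 was at 77.4 CPM in the cortex of the same mouse, against 88.2 to 90.1 CPM in the other 3. Etv1 was at 152 CPM in the hippocampus of PBS 18-month mouse 11, against 124 to 127 CPM. In the cortex of long PBS mouse 24, Fezf2 was at 24.7 CPM, against 22.5 to 22.7 CPM, and Bcl11b at 131 CPM, against 70.6 to 78.2 CPM. The cortex of that mouse also had the highest striatal score of its group.

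The change between 22 and 18 months differed between regions for 2 members. For Etv1, the change in the cortex exceeded that in the cerebellum by 0.89 and that in the hippocampus by 0.77 on the log2 scale. For Fezf2, the change in the cortex exceeded that in the hippocampus by 0.90.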

How the results depend on the processing

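Over the log2 changes of members, 3420 of 3495 values under an alternative stayed on their side of the threshold, 33 lost it, 41 gained it and 1 reversed. Values that passed in neither fit count among the 3420, so that number does not show how well the calls hold. Direction was compared only where the main or the alternative fit passed, so changes of sign among values that passed in neither are not counted. The reversed one is Prox1 in hippocampus against cerebellum, -0.091 in the naive 2-month mice alone. With the mouse as a replicate block it was 0.20 (adjusted p = 0.0904), so 7 of 8 members passed there; the pairing changed no other call of a member. Hippocampus against cortex called 4 members in the naive 2-month mice alone. PBS 22 against 18 months in the cerebellum called 1 member, against 0 with relative log expression factors or without libraries under 2500000 counts, 2 without a filter, in DESeq2 and in limma-voom, 3 with the compared groups alone and 0 to 2 with 1 library left out. Adding the plasma mice there called 2, which was 0 without the small libraries and 0 to 3 with 1 library left out. In the cortex the same comparison called 1, against 0 without the small libraries or with the compared groups alone and 0 to 1 with 1 library left out. Adding the plasma mice called 4, which was 3 without the small libraries and 2 to 4 with 1 library left out. Zbtb20 in the cerebellum of naive mice gave 0 to 1 calls with 1 library left out. DESeq2 called 1 member, Zbtb20, for plasma in both hippocampus experiments. The cause of these moves was not tested. Counts over all genes moved more. In the cerebellum, 411 genes passed with age in naive mice (194 to 678) and 27 at 22 against 18 months in PBS mice (1 to 483). In the cortex 21 (3 to 28) and 1 (0 to 51) passed, and in the hippocampus 13 (0 to 24) and 0 (0 to 24). With plasma mice added at both ages, 212 genes passed in the cerebellum (15 to 518) and 357 in the cortex (77 to 434). For plasma in both hippocampus experiments 0 genes passed (0 to 54), and in the second alone 0 (0 to 22). In the naive 2-month mice alone, 686 genes passed for hippocampus against cortex (11743 in all mice), 9449 for hippocampus against cerebellum (16388) and 9555 for cortex against cerebellum (16239). For differences of the age change, 8 genes passed for cortex minus cerebellum (1 to 23), 10 for hippocampus minus cerebellum (0 to 12) and 0 for hippocampus minus cortex (0 to 1). Correlations past the threshold were 13 of 32, and 14, 15 and 19 under the alternatives, all counted by Pearson. By Spearman fewer of the 32 passed. No paired analysis was possible for age or treatment because those groups share no animal number. No library of the cerebellum, the cortex or the second experiment had low own-region markers. Low counts limit Emx1, Emx2, Tbr1 and Fezf2 in the cerebellum, where age and plasma were not tested, and Bcl11b there.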
